A study of Rattus norvegicus with 22 samples.

Results

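The transcription factors that give microglia and other macrophages their identity were followed across 5 groups of rat microglia. Of 9 such factors listed for this account, 8 have a row among the 17284 genes of the expression table: Sall1, Mef2a, Irf8, Spi1, Runx1, Maf, Cebpa and Mitf. Mef2c was not analysed here. All 8 were among the 9691 genes tested, those that reached 1 FPKM in 3 samples or more. FPKM correct fragment counts for the length of the transcript and the size of the library, so levels can be compared between genes.

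RNA was sequenced from brain microglia (cerebellum left out) of Sprague-Dawley rats at postnatal day 21, collected by panning on an antibody to CD11b. Of the 22 samples, 3 hold cells that were never cultured (Acute). Another 6 hold cells kept for 8 days in TIC medium without serum (TIC). The others spent the same 8 days in culture and met fetal calf serum, at 10%, towards the end: 5 samples for 1 day (FCS 1d), 4 for 3 days (FCS 3d) and 4 for 5 days (FCS 5d). All cultured groups began in TIC medium, whose make-up is not spelled out in the labels. The samples are called biological replicates, with none tied to an animal or a preparation, so p-values measure the spread between these samples only.

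Spi1 encodes PU.1, the pioneer factor of the macrophage lineage, which opens enhancers together with C/EBP factors (Cebpa), RUNX1 and IRF8. Sall1, a zinc-finger factor that the brain environment maintains in microglia, and MEF2 factors act on top of this shared base at microglial enhancers. MAF keeps mature macrophages quiescent. MITF drives lysosomal genes and, in osteoclasts, the genes of bone resorption.

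Promoter sequence is shown for the pair of factors that differed between FCS 5d and TIC, Mef2a and Mitf. The sequences are RefSeq's, build GRCr8, for the 250 bases before the annotated gene start, and other starts of these genes were not examined. RefSeq promoters matched 6 of the 8 factors, all but Sall1 and Spi1. Capitals mark matches to the binding motifs of the listed families. Mef2a lies on the minus strand at chr1:130392163-130392412, and Mitf on the plus strand at chr4:131965490-131965739; both are written 5′ to 3′ on the strand of the gene.
Mef2a: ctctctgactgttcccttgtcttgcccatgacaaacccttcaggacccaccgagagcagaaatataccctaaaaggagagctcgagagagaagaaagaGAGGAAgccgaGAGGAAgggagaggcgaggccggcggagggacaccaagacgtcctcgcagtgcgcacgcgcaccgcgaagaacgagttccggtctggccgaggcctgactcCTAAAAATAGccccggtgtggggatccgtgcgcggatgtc
Mitf: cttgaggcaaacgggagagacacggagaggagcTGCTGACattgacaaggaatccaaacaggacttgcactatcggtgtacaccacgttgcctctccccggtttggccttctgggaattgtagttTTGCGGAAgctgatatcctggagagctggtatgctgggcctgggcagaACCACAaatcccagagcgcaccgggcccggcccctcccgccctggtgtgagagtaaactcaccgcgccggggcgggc

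On both strands of each promoter, 8 motifs were searched. They were GAGGAA for PU.1, GGAA and GAAA with any 2 bases between them for the ETS-IRF composite, TTGCNNAA for C/EBP, CTA and TAG with any 4 bases between them for MEF2, TGTGGT for RUNX, CACGTG for the E-box, CATGTG for the M-box and TGCTGAC for MAF. The Mef2a window holds GAGGAA at 152 and 141 bases before the gene start and CTAAAAATAG, a MEF2-type match in the promoter of a MEF2 gene, at 40 bases. The Mitf window holds TGCTGAC at 217 bases, TTGCGGAA at 125 bases, and ACCACA, the reverse complement of TGTGGT, at 77 bases. Among 33469 RefSeq promoters of that length, 23.3% hold GAGGAA, 3.41% the MEF2 motif, 3.53% TGCTGAC, 9.22% TTGCNNAA and 14.5% TGTGGT. The Runx1 window holds 1 CATGTG, a motif found in 12.1% of promoters. No match of these 8 motifs was found in the Irf8, Maf or Cebpa windows, the ETS-IRF motif (2.48% of promoters) and CACGTG (5.59%) matched in none of the 6, and no matches in a window shared a base. A match is a run of letters and not a measured binding site.

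The libraries held 8115 to 9111 genes at 1 FPKM or more. Read totals are not part of FPKM values, so neither depth nor counting error is known in reads. The steps between low values gave a depth relative to TIC 1 for 9 libraries, 0.841 to 1.11 times in 7 cultured ones and 1.80 and 1.57 times in Acute 1 and Acute 3, and no clear step in the other 12. Summed FPKM divided the libraries into a high set of 6, at 564301 to 696703 (every Acute library with TIC 5, TIC 6 and FCS 1d 5), and a low set of 16, at 335470 to 434577. A second division is by tested genes listed at 0, which numbered 934 to 1295 in a many-zero set of 10 libraries and 353 to 672 in a few-zero set of 12. Library preparation and sequencing ran in 2 batches that each held all conditions, per the labels, but samples are not assigned to them, so no batch term could be fitted. Microglia and macrophage markers (10 genes, Cx3cr1, P2ry12, Tmem119 and Csf1r among them) made up 0.474 to 0.878% of summed FPKM in cultured libraries and 1.94 to 2.31% in Acute libraries. In the limma test given below, 7 of the 10 were lower and 2 higher in TIC than in Acute, where 42.4% of all tested genes were called. Itgam, the gene of CD11b, did not follow the 4 named markers. It read 3.97, 9.14 and 87.2 FPKM in Acute 1 to 3 and 43.9 to 72.0 FPKM in TIC. Markers of neutrophils and eosinophils (18 genes) made up at most 0.0185% in cultured libraries, against 0.34, 3.55 and 1.88% in Acute 1 to 3. In each cultured group 13 of these 18 genes, including S100a9, Prg2 and Mpo, were listed at 0 in every library. Markers of B, T and NK cells (16 genes) reached 0.0663% and red blood cell markers (8 genes) 0.297% in Acute libraries, against at most 0.00305% and 0.00015% in culture. The part of these cells in differences from Acute was not tested. In bulk RNA, fewer cells of a type and less RNA per cell cannot be told apart.

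Levels were compared as log2(FPKM + 1) in 1 limma fit of the 5 groups, and a gene was called at an adjusted p under 0.05. Between TIC and Acute, 4 of the 8 factors were called, 1 higher and 3 lower, where 42.4% of all tested genes were called (14.7% higher and 27.7% lower). The share of the factors is therefore close to that of all genes, although Sall1 ranked 107th of 9691 by size of change. FCS 1d against TIC called 0 factors in limma, with 0 at an unadjusted p under 0.05 as well, where 2.92% of all genes were called (1.22% higher and 1.7% lower). FCS 3d against TIC also called 0 in limma, with 1, Maf, at an unadjusted p under 0.05, where 10.1% of all genes were called (4.13% higher and 5.95% lower). FCS 5d against TIC called 2, both lower, where 12.9% of all genes were called (4.81% higher and 8.1% lower). The pair was Mef2a and Mitf.

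FCS 5d against FCS 1d called 2 factors, Cebpa and Mitf, both lower, where 5.38% of all genes were called (1.92% higher and 3.46% lower). FCS 5d against Acute called 2, Sall1 and Mef2a, both lower, where 39.8% of all genes were called (12.0% higher and 27.9% lower). FCS 1d and FCS 3d against Acute each called the same 4 factors as TIC against Acute, Sall1, Mef2a and Maf lower and Mitf higher, where 38.3% and 39.4% of all genes were called. In FCS 1d against Acute the call of Mef2a was lost in 13 of 23 alternatives. That of Maf was lost in 7 of 22 and that of Mitf in 2 of 23. The count of 4 was 2 or lower in 6 of 23 alternatives, among them the fit without Acute 3, where it was 2. In FCS 3d against Acute the call of Maf was lost in 14 of 20, and those of Mef2a and Mitf in 6 of 21 each. The count of 4 was 2 or lower in 8 of 21, among them the fits without FCS 3d 2 or without FCS 3d 3, where it was 2. FCS 3d against FCS 1d called 0 factors in limma, with 0 at an unadjusted p under 0.05 (1.08% of all genes called). FCS 5d against FCS 3d called 0 in limma, with 1, Mitf, at an unadjusted p under 0.05 (0.629% of all genes called).

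**Figure D1:**
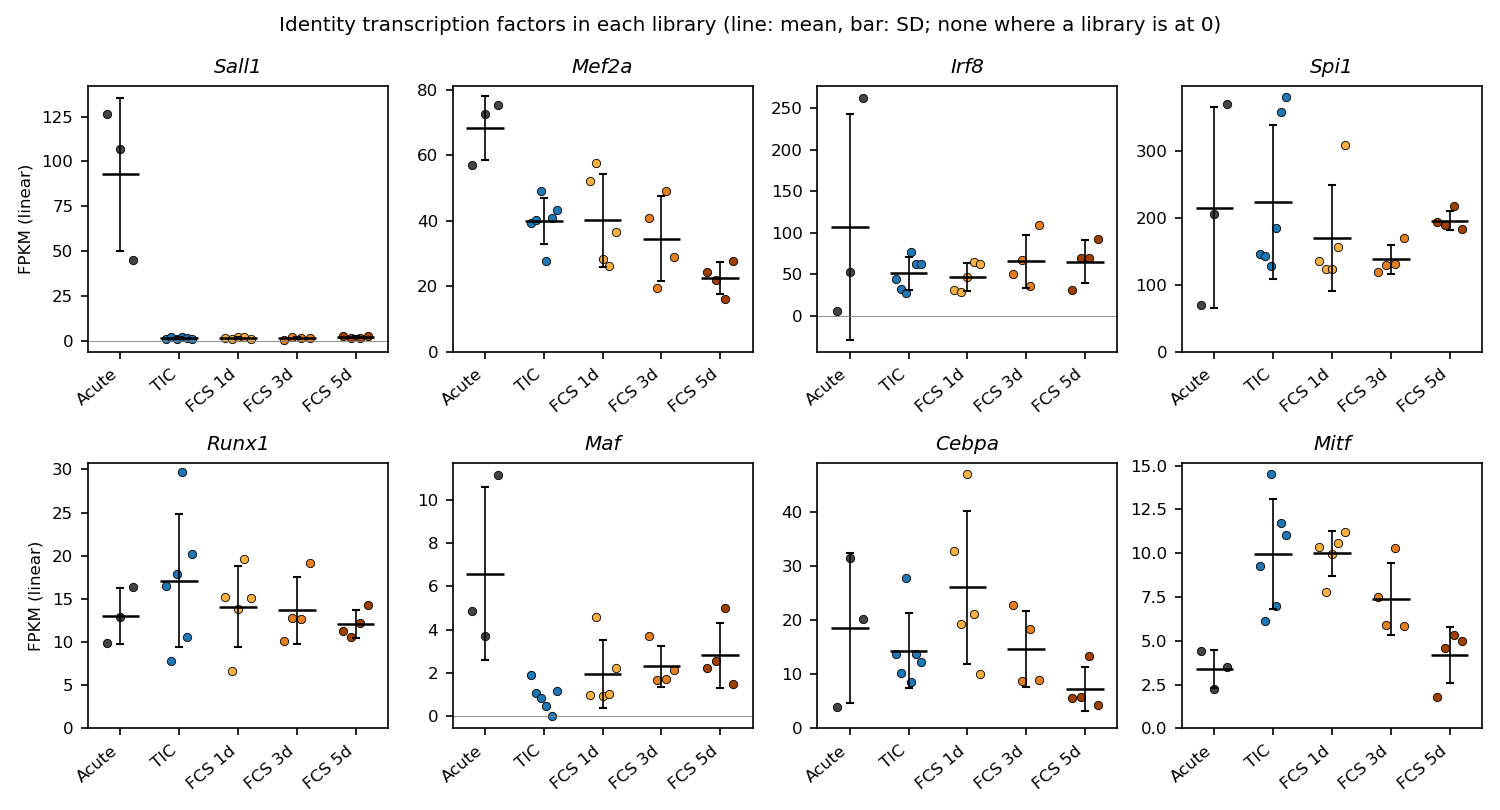
FPKM of the 8 factors in every library of the 5 groups, on linear axes from 0; points are libraries, lines group means and bars SD, both left out for Maf in TIC, where TIC 5 is listed at 0. Sall1 is at 45.2 to 126 FPKM in Acute and under 3 FPKM in all cultured libraries, Mitf is highest in TIC and FCS 1d, and the Acute points of Irf8, Spi1 and Cebpa lie far apart.

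**Figure D2:**
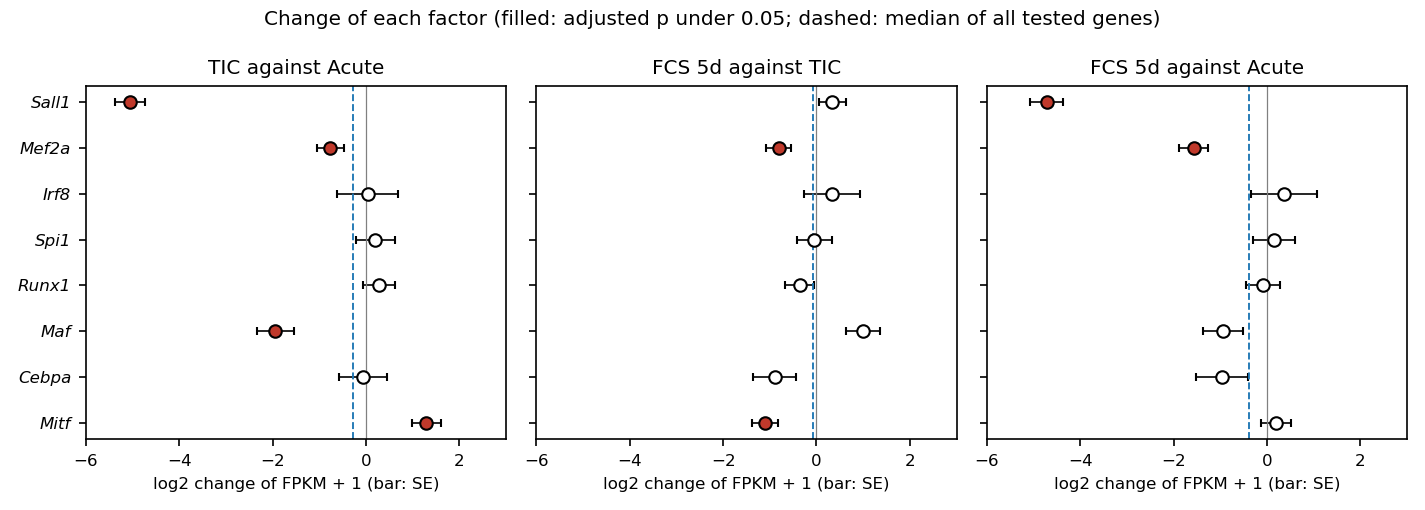
Log2 change of FPKM + 1 for the 8 factors (rows) in TIC against Acute, FCS 5d against TIC and FCS 5d against Acute; points are limma estimates, bars their SE, filled points have an adjusted p under 0.05, and the dashed line is the median of all tested genes. Sall1 lies at -5.06 and -4.72 in the comparisons with Acute, far left of the other factors, and Mitf lies at 1.29 in TIC against Acute and at -1.10 in FCS 5d against TIC.

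Sall1, the factor that separates microglia from other macrophages in mice, was high in the cells taken directly from the brain and low in all cultured libraries. It read 126, 107 and 45.2 FPKM in the Acute libraries. In TIC it lay between 1.02 and 2.32 with a median of 1.48 FPKM. In serum it read 1.86, 1.04, 2.37, 2.21 and 1.36 FPKM at 1 day, 0.701, 2.08, 1.65 and 1.82 FPKM at 3 days, and 2.98, 1.499, 1.89 and 2.94 FPKM at 5 days. The lowest Acute library stood above every cultured library, and the 4 cultured groups overlapped one another.

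Sall1 fell by 5.06 ± 0.32 on the log2(FPKM + 1) scale in TIC against Acute (SE, limma adjusted p = 1.27e-11), and its mean FPKM was 57.8-fold lower. After 5 days of serum it was lower than in Acute by a similar amount (log2 change -4.72 ± 0.35, limma adjusted p = 2.8e-10). Neighbouring cultured groups in the order of its means, FCS 5d (2.33 ± 0.747 FPKM, SD), FCS 1d (1.77 ± 0.562), TIC (1.61 ± 0.485) and FCS 3d (1.56 ± 0.602), did not differ beyond their spread. The 95% interval of the log2 change against TIC ran from -0.49 to 0.65 at 1 day of serum, from -0.64 to 0.57 at 3 days and from -0.26 to 0.95 at 5 days. The call against Acute was kept under all 24 alternatives for TIC and all 21 for FCS 5d.

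Genes reported downstream of SALL1 or MEF2 in microglia were lower along with Sall1 in TIC, and part of them rose in serum, where Sall1 passed no test against TIC. Of 22 tested genes of this list, 21 were lower in TIC than in Acute and 0 higher (95.5% called, against 42.4% of all tested genes). The median log2 change was -5.56, against -0.29 over all tested genes. In serum, 8 rose and 0 fell at 1 day, 10 rose and 1 fell at 3 days, and 7 rose and 2 fell at 5 days, each against TIC, with list medians of 0.87, 0.93 and 0.37. These calls were 36.4, 50.0 and 40.9% of the list, against 2.92, 10.1 and 12.9% of all tested genes. Against Acute, 21 were still lower in FCS 5d and 0 higher (95.5% called, against 39.8% of all tested genes), with a median of -4.44. The largest rises at 5 days were the complement genes C1qb (log2 change 5.53), C1qc (5.16) and C1qa (5.03), followed by the ADP receptor P2ry13 (2.29). C1qb averaged 1217 ± 677 FPKM in FCS 5d and 25.7 ± 15.4 FPKM in TIC (SD, n = 4 and 6). Tmem119, a microglia surface marker, took another course. It read 9.17 to 25.6 FPKM in TIC, then averaged 89.2 ± 15.5 FPKM at 1 day of serum, 40.7 ± 6.45 at 3 days and 12.2 ± 8.28 at 5 days. Its level at 5 days was lower than at 1 day by a log2 change of -3.09. Selplg, a selectin ligand, and the secreted ribonuclease Rnase4 fell at 5 days of serum against TIC, with log2 changes of -1.497 and -1.10.

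**Figure D3:**
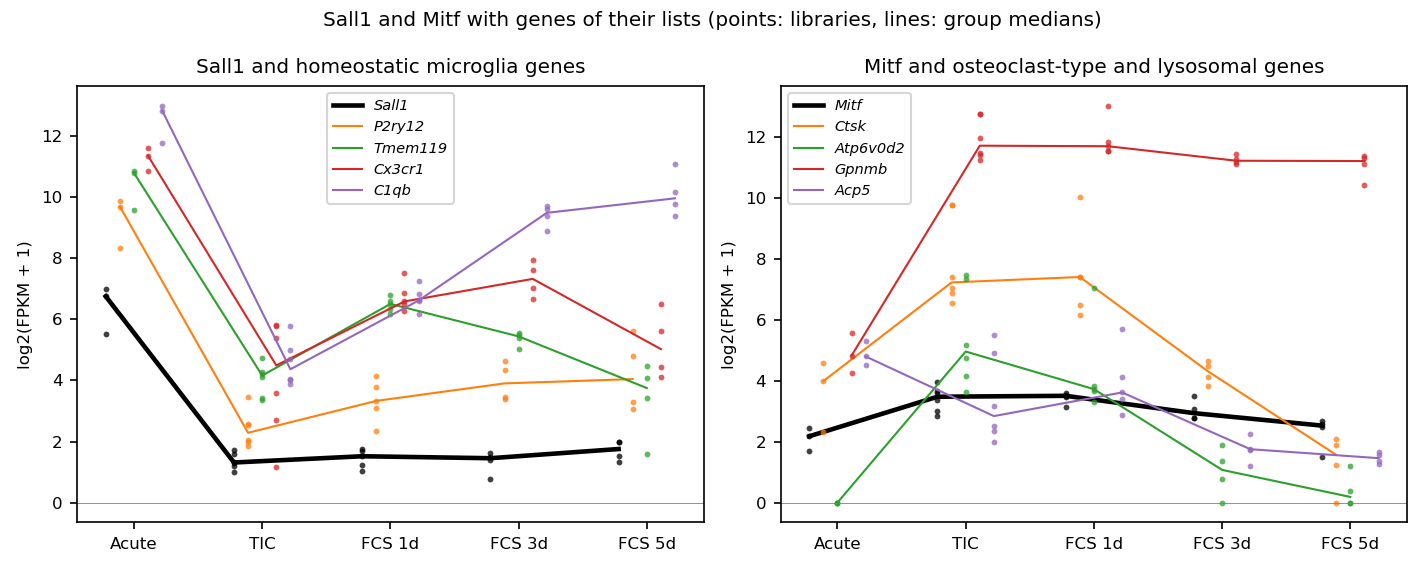
Log2(FPKM + 1) of Sall1 with 4 homeostatic microglia genes (left) and of Mitf with 4 genes of its target list (right) in the 5 groups; points are libraries and lines join group medians. Sall1 stays near 1 to 2 on this scale in all cultured groups while C1qb climbs with days in serum, and Ctsk and Atp6v0d2 decline towards 0 at 5 days of serum.

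Mef2a, one of the MEF2 factors that bind microglial enhancers, declined in smaller steps. It read 57.1, 72.5 and 75.2 FPKM in Acute, and 27.7 to 49.0 with a median of 40.6 FPKM in TIC. It read 52.3, 57.5, 28.3, 26.1 and 36.6 FPKM at 1 day of serum, 40.8, 19.5, 49.0 and 28.9 FPKM at 3 days, and 24.4, 21.97, 16.1 and 27.8 FPKM at 5 days. Every Acute library stood above every TIC and FCS 5d library, and FCS 5d overlapped TIC by 1 library, FCS 5d 4.

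Mef2a fell by 1.57 ± 0.32 in FCS 5d against Acute (log2, SE, limma adjusted p = 0.00044), a 3.02-fold lower mean FPKM. It fell by 0.76 ± 0.29 in TIC against Acute (adjusted p = 0.040) and by 0.81 ± 0.27 in FCS 5d against TIC (adjusted p = 0.048). Both of these calls lie near the threshold. The first was lost in 14 of 24 alternatives and the second in 21 of 25, with adjusted p from 0.027 to 0.51 and from 0.030 to 0.32. Leaving out Acute 2, Acute 3, TIC 1, TIC 2 or TIC 4 ended the first call. Leaving out any FCS 5d library, or any TIC library but TIC 4, ended the second. The median of all tested genes was -0.29 in TIC against Acute, so relative to it Mef2a moved less. With all libraries rescaled to the same summed FPKM that median was 0.08 and the Mef2a change was -0.31 (adjusted p = 0.51). With the same rescaling its change in FCS 5d against Acute was -0.87 (adjusted p = 0.072). In FCS 1d and FCS 3d the libraries with many zeros stood above those with few, 52.3 and 57.5 FPKM against 26.1 to 36.6 FPKM at 1 day, and 40.8 and 49.0 FPKM against 19.5 and 28.9 FPKM at 3 days. The part of this difference between libraries in the Mef2a results was not tested beyond those alternatives.

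Maf, a factor of mature tissue macrophages, had its lowest mean in serum-free culture, but no serum group was called against TIC in the main fit. It read 4.88, 3.73 and 11.2 FPKM in Acute, and 1.90, 1.07, 0.852, 0.489, 0 and 1.15 FPKM in TIC 1 to 6. In serum it read 0.981, 4.57, 0.960, 1.01 and 2.24 FPKM at 1 day, 3.69, 1.67, 1.74 and 2.14 FPKM at 3 days, and 2.24, 2.57, 4.98 and 1.497 FPKM at 5 days. TIC and Acute did not overlap, and the FCS 5d range overlapped both TIC and Acute.

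Maf fell by 1.94 ± 0.40 in TIC against Acute (log2, SE, limma adjusted p = 0.0005), and the call was lost among the libraries with high summed FPKM alone (log2 change -2.25, adjusted p = 0.081) and among those with many zeros alone (-1.24, adjusted p = 0.10), both with fewer libraries. Against TIC its log2 change was 0.57 ± 0.34 in FCS 1d (limma adjusted p = 0.56) and 0.83 ± 0.37 in FCS 3d (0.18). In FCS 5d against TIC it was 1.00 ± 0.37, with an adjusted p of 0.077. That difference passed the threshold when libraries were rescaled to the same summed FPKM (adjusted p = 0.046) and among libraries with few zeros (0.038). In FCS 5d against Acute it was -0.94 ± 0.43 (adjusted p = 0.087), and -1.18 without FCS 5d 3 (adjusted p = 0.047). The group means after serum, 1.95, 2.31 and 2.82 FPKM at 1, 3 and 5 days, did not differ from each other beyond their spread. Border macrophage markers (8 genes, Mrc1 and Lyve1 among them) made up 0.121 to 0.204% of summed FPKM in FCS 5d and 0.0441 to 0.0757% in TIC. In Acute, where mean Maf was highest, they made up 0.0149 to 0.0332%. The part of border macrophages in the Maf values was not tested.

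Mitf was the one factor called higher in TIC than in Acute. It read 4.41, 2.27 and 3.53 FPKM in Acute, and 6.12 to 14.5 with a median of 10.2 FPKM in TIC. It read 10.4, 7.80, 9.95, 10.6 and 11.2 FPKM at 1 day of serum, 7.51, 5.91, 10.3 and 5.86 FPKM at 3 days, and 1.82, 4.57, 5.35 and 4.97 FPKM at 5 days. All TIC, FCS 1d and FCS 3d libraries stood above all Acute and FCS 5d libraries, and the FCS 5d and Acute ranges overlapped.

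Mitf rose by 1.29 ± 0.30 in TIC against Acute (log2, SE, limma adjusted p = 0.0016), a 2.93-fold higher mean FPKM. It fell by 1.10 ± 0.28 in FCS 5d against TIC (adjusted p = 0.0095) and by 1.14 ± 0.29 in FCS 5d against FCS 1d (adjusted p = 0.018). The mean was 2.38-fold lower in FCS 5d than in TIC. FCS 5d and Acute differed by 0.20 ± 0.33 (adjusted p = 0.67, 95% interval -0.48 to 0.88). Of the 4 libraries at 5 days of serum, FCS 5d 1 was the lowest, and without it the falls had an adjusted p of 0.058 against TIC and 0.096 against FCS 1d, with log2 changes of -0.83 and -0.87. The rise in TIC was lost only among the libraries with high summed FPKM (log2 change 1.52, adjusted p = 0.12) among the alternatives run.

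Genes that MITF family factors drive in osteoclasts and lysosomes moved with Mitf in part. The list had a median log2 change of 1.00 in TIC against Acute, against -0.29 over all genes. Of its 21 tested genes, 10 rose and 3 fell (61.9% called, against 42.4% of all tested genes). Among them were Gpnmb, a glycoprotein of lysosome-rich macrophages (log2 change 7.06), the matrix protease Mmp9 (4.35), the collagen-degrading protease Ctsk (4.28) and the proton pump subunit Atp6v0d2, which was listed at 0 in all Acute libraries. Tnfrsf11a, which encodes the osteoclast receptor RANK, fell by 3.14, and the lysosomal genes Hexa and Lamp1 fell by 1.03 and 0.99. Against TIC, 0 of the 21 were called at 1 day of serum, 7 fell and 0 rose at 3 days, and 6 fell and 1 rose at 5 days, with list medians of -0.23, -0.86 and -0.88. The called shares were 0, 33.3 and 33.3%, against 2.92, 10.1 and 12.9% of all tested genes.

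Ctsk had the largest fall of the list at 5 days. It read 0, 2.71, 3.21 and 1.37 FPKM in FCS 5d 1 to 4, against 92.7 to 880.2 FPKM in TIC, a log2 change of -6.61 ± 0.70 (limma adjusted p = 7.0e-07). The highest Ctsk values, 877 and 880.2 FPKM in TIC 5 and TIC 6 and 1055 FPKM in FCS 1d 5, were in cultured libraries with high summed FPKM. Atp6v0d2 read 0, 0.294, 1.31 and 0 FPKM in FCS 5d 1 to 4, against 11.3 to 177 FPKM in TIC. Gpnmb did not pass the test, with 2211 ± 572 FPKM in FCS 5d and 4327 ± 2116 FPKM in TIC (SD, n = 4 and 6, log2 change -0.87 ± 0.35, limma adjusted p = 0.11). Tnfrsf11a rose by 1.09 in FCS 5d against TIC.

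Cebpa encodes C/EBPα, a partner of PU.1 in the myeloid lineage, and its values spread widely within groups. It read 3.95, 31.6 and 20.3 FPKM in Acute, and 13.9, 10.2, 27.9, 8.54, 13.7 and 12.3 FPKM in TIC 1 to 6. It read 32.8, 19.3, 47.0, 21.2 and 10.1 FPKM at 1 day of serum, 22.8, 8.84, 18.4 and 8.93 FPKM at 3 days, and 5.71, 5.89, 13.4 and 4.36 FPKM at 5 days. FCS 5d was lowest, but its highest library stood above the lowest library of every other group.

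Cebpa fell by 1.64 ± 0.49 in FCS 5d against FCS 1d (log2, SE, limma adjusted p = 0.049), a 3.55-fold lower mean FPKM. This call was lost in 14 of 24 alternatives, with adjusted p from 0.0048 to 0.51, among them the fits without any of FCS 1d 1 to 4 and without FCS 5d 1, FCS 5d 2 or FCS 5d 4. In FCS 5d against TIC the log2 change was -0.90 ± 0.47 (adjusted p = 0.24) and in TIC against Acute -0.07 ± 0.51 (adjusted p = 0.93). Acute 1 was the lowest Acute library for Cebpa, and without it FCS 5d was lower than Acute by 1.77 on the log2 scale (adjusted p = 0.013; -0.96 and 0.17 with it). The summed share of neutrophil and eosinophil markers had the same order as Cebpa across the Acute libraries, but single genes differed. S100a9 had that order, at 1267, 11587 and 6765 FPKM in Acute 1 to 3, as did Prg2 and Mpo. S100a8 did not, at 112.3, 900.3 and 3348 FPKM, and was highest in Acute 3. The part of neutrophils and eosinophils in the Acute level of Cebpa was not tested.

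The 3 remaining factors, Spi1, Irf8 and Runx1, passed no test in any comparison. Spi1, the gene of PU.1, was the most abundant of the 8 in every group by mean FPKM. It read 70.8, 206 and 369.7 FPKM in Acute, and 146, 143, 128, 185, 359 and 381 FPKM in TIC 1 to 6. It read 135, 123, 124, 157 and 309 FPKM at 1 day of serum, 119.8, 130.3, 131 and 171 FPKM at 3 days and 193, 190.0, 218 and 184 FPKM at 5 days. The high culture values belong to TIC 5, TIC 6 and FCS 1d 5, the cultured libraries with high summed FPKM.

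The log2 change of Spi1 was 0.20 ± 0.41 in TIC against Acute (95% interval -0.65 to 1.06), -0.04 ± 0.38 in FCS 5d against TIC and 0.16 ± 0.45 in FCS 5d against Acute, with limma adjusted p of 0.72, 0.97 and 0.81. Scaled to a summed FPKM of 1000000 in every library, Spi1 read 515 and 548 in TIC 5 and TIC 6 and 332 to 457 in the other TIC libraries, so the gap was smaller on that scale. With the division of libraries by summed FPKM as a term in the fit, Spi1 was higher than Acute by 1.04 in TIC (adjusted p = 0.024) and by 1.42 in FCS 5d (0.017). All Acute libraries lie on 1 side of that division. Rescaled to the same summed FPKM, the FCS 5d difference from Acute was 0.86 (adjusted p = 0.041). Among libraries with low summed FPKM alone, Spi1 was higher in FCS 5d than in FCS 1d by 0.54 (adjusted p = 0.024).

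Irf8, the interferon regulatory factor that microglia need for their development in mice, varied 39.5-fold within Acute, at 6.62, 53.4 and 262 FPKM. In culture it read 27.3 to 77.4 FPKM in TIC (median 53.5), then 31.4, 29.3, 47.2, 65.3 and 62.9 FPKM at 1 day of serum, 50.7, 66.9, 35.9 and 109.5 FPKM at 3 days and 30.8, 69.3, 69.2 and 92.5 FPKM at 5 days. In each of the 5 groups the libraries with few genes at 0 stood above those with many. In TIC the few-zero libraries had 62.0 to 77.4 FPKM and the many-zero libraries 27.3 to 45.0 FPKM, and in FCS 5d the values were 69.2 to 92.5 FPKM and 30.8 FPKM.

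The log2 change of Irf8 was 0.04 ± 0.66 in TIC against Acute and 0.37 ± 0.71 in FCS 5d against Acute (limma adjusted p = 0.97 and 0.71), while mean FPKM was lower in both cultures. Acute 1 and Acute 3 decide these values. Without Acute 3 the log2 change in FCS 5d against Acute was 1.60 (adjusted p = 0.037), and without Acute 1 it was -0.95 (adjusted p = 0.20). Among libraries with few zeros, where Acute 3 stands alone for Acute and is taken to vary like the other groups, it was -1.77 for FCS 5d (adjusted p = 0.0043) and -1.95 for TIC (adjusted p = 0.0022). No direction against Acute can be given for Irf8 from these libraries.

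**Figure D4:**
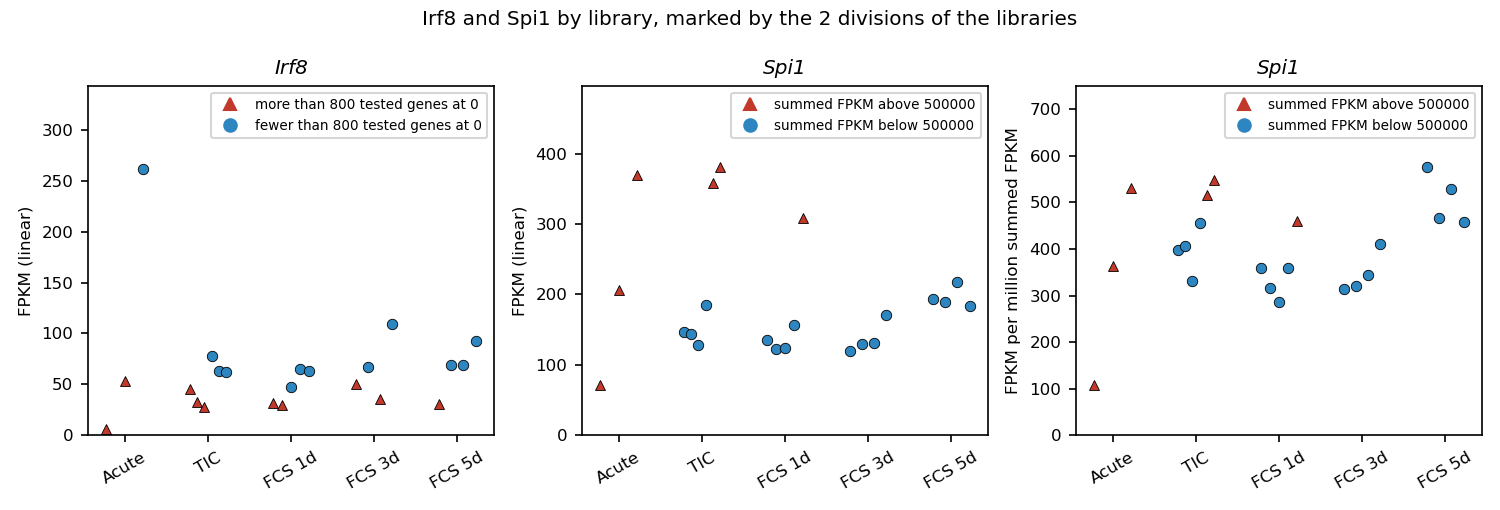
Irf8 in FPKM (left), Spi1 in FPKM (middle) and Spi1 scaled to a summed FPKM of 1000000 (right) for every library in the 5 groups; triangles mark libraries with more than 800 tested genes at 0 (Irf8) or with summed FPKM above 500000 (Spi1), circles the others. In every group the circles of Irf8 lie above the triangles, and the Spi1 triangles of TIC and FCS 1d lie above their circles.

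Runx1, a factor needed for definitive blood formation and active in the microglial lineage, read 13.03 ± 3.25 FPKM in Acute, 17.1 ± 7.70 in TIC, 14.1 ± 4.69 in FCS 1d, 13.7 ± 3.88 in FCS 3d and 12.1 ± 1.63 in FCS 5d (SD). All 5 ranges overlapped. Its log2 change was 0.28 ± 0.34 in TIC against Acute (95% interval -0.43 to 0.99) and -0.36 ± 0.31 in FCS 5d against TIC (-1.005 to 0.28), and no alternative gave a call in the 6 comparisons. Cbfb, the subunit that RUNX factors bind DNA with, read 42.7 ± 16.3 FPKM in FCS 5d, 54.7 ± 14.3 in TIC and 59.5 ± 12.1 in Acute, with no call between these groups.

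Myeloid genes that PU.1, C/EBP or IRF8 bind and drive moved in both directions. Of 33 tested, 11 rose and 8 fell in TIC against Acute (57.6% called, against 42.4% of all tested genes), with a median log2 change of -0.01. The scavenger receptor Msr1 (log2 change 6.31), the endotoxin co-receptor Cd14 (4.40), the oxidase subunit Cybb (2.81) and Cd68 (2.46) rose most, and the adaptor Blnk fell by 3.74 and the CSF1 receptor gene Csf1r by 2.24. In FCS 5d against TIC 3 rose and 5 fell (24.2% called, against 12.9% of all tested genes, list median -0.39). Blnk rose by 2.69, Fcgr3a by 1.95 and Ctsc by 1.16, while Cybb fell by 1.64, the integrin gene Itgb2 by 1.60 and the lysozyme gene Lyz2 by 1.27.

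Relatives and DNA-binding partners of the factors were examined next, 29 of 33 listed genes being tested. In TIC against Acute 6 rose and 8 fell (48.3% called, against 42.4% of all tested genes), and in FCS 5d against TIC 3 rose and 7 fell (34.5%, against 12.9%). Spib, a close relative of Spi1, was listed at 0 in every cultured library but FCS 5d 3 (0.222 FPKM), against 9.89, 25.4 and 81.9 FPKM in Acute. The B cell marker Cd79b read 67.1, 50.9 and 154 FPKM in Acute 1 to 3 and at most 7.05 FPKM in cultured libraries. The part of such cells in the Acute level of Spib was not tested. Among the IRF genes, Irf1 and Irf3 fell in TIC against Acute, by 1.83 and 1.86 on the log2 scale, whereas Irf7, a mediator of the interferon response, rose by 3.03. Irf7 read 230 to 379 FPKM in TIC 1 to 4 but 18.7 and 65.5 FPKM in TIC 5 and TIC 6, against 5.54 to 34.9 FPKM in Acute, so the ranges overlapped. Batf3, a partner of IRF8 in dendritic cells, was listed at 0 in all TIC libraries, against 13.1, 2.58 and 12.0 FPKM in Acute.

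Among the C/EBP and MITF relatives, Cebpb fell and Cebpd and Tfec rose in serum. Cebpd, a C/EBP gene of the acute-phase response, rose by 1.68 ± 0.43 in FCS 5d against TIC (limma adjusted p = 0.011), with 79.7 ± 24.9 FPKM in FCS 5d and 24.6 ± 9.13 FPKM in TIC. Cebpb, which drives inflammatory genes in macrophages, fell by 1.91 ± 0.56 (adjusted p = 0.026), with 38.1 ± 31.9 FPKM in FCS 5d and 154 ± 124 FPKM in TIC, where TIC 5 and TIC 6 read 299 and 326 and the other libraries 49.2 to 96.2. Tfec, the MITF relative largely restricted to macrophages, rose by 2.45 ± 0.51 in FCS 5d against TIC (adjusted p = 0.0022) while Mitf fell. It read 16.1, 22.7, 29.8 and 22.2 FPKM in FCS 5d, against 6.85, 5.16, 0, 1.47, 5.30 and 6.90 FPKM in TIC, and the groups did not overlap. Tfe3 read 25.6 ± 6.29 FPKM in FCS 5d and 23.0 ± 3.70 in TIC.

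Relatives of Maf and Mef2a were called as well. The small MAF genes Maff and Mafk, which lack an activation domain, fell by 2.18 and 1.54 in FCS 5d against TIC. Mafk had risen by 1.65 in TIC against Acute, and Maff read 4.66 to 14.0 FPKM in TIC and was listed at 0 in all Acute libraries. Mef2d, unlike Mef2a, rose by 1.61 ± 0.57 in TIC against Acute (adjusted p = 0.027), with Acute 1 listed at 0, and fell by 1.66 ± 0.52 in FCS 5d against TIC (adjusted p = 0.036), with FCS 5d 1 listed at 0. Both of those libraries have many genes at 0.

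A list drawn up for the CSF1, IL-34 and TGF-beta pathways, signals known to act on these factors, had 10 tested genes. In TIC against Acute 3 rose and 3 fell (60.0% called, against 42.4% of all tested genes). Csf1, the growth factor, rose by 3.44 and the receptor genes Tgfbr2 and Csf2rb by 2.31 and 2.87. Csf2rb encodes a receptor chain for other cytokines and not for these pathways, but is included in the counts of this list. Csf1r fell by 2.24, Tgfbr1, a TGF-beta receptor, by 1.30 and Nrros, which tethers latent TGF-beta on microglia, by 1.29. In FCS 5d against TIC 0 rose and 2 fell, with log2 changes of -3.33 for Csf1 and -1.253 for Tgfbr1. Csf1 averaged 1.49 ± 0.379 FPKM in FCS 5d and 27.4 ± 16.0 FPKM in TIC (SD), and 1.28 ± 0.039 FPKM in Acute. The auxiliary TGF-beta receptor gene Eng was the 1 gene of the list called at 1 day of serum (10.0%, against 2.92% of all tested genes). Eng rose by 1.85 ± 0.29 there against TIC (limma adjusted p = 0.00034).

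A wider list drawn up as macrophage transcription factors had 52 tested genes. Of these, 10 rose and 12 fell in TIC against Acute (42.3% called, against 42.4% of all tested genes). In FCS 5d against TIC 3 rose and 5 fell (15.4%, against 12.9%). The stress factor Atf3 (log2 change 3.69), Egr2 (2.83) and Ets2 (2.37) rose most in TIC. Fos (-2.96), Klf2 (-2.92), Zfp36 (-2.69) and Egr1 (-2.58) fell most. Zfp36 encodes an RNA-binding protein and not a transcription factor, but is included in these counts. In FCS 5d against TIC Egr2 fell by 2.54, Bhlhe40 by 2.38, Klf4 by 2.18 and Atf3 by 1.82, and the retinoid receptor gene Rxra rose by 1.62.

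The genes whose group means followed each factor most closely were found by the root mean square difference of centred log2(FPKM + 1) profiles over the 5 groups, as a description. For Sall1 these were LOC498368 (0.0886), Spib (0.120) and Ankrd55 (0.136). For Mitf they were the DNA repair gene Nthl1 (0.0277), Nrip3 (0.0885) and Bgn (0.0888). For Mef2a they were Klf11 (0.0352), Ppp1r12c (0.0414) and Nck1 (0.0530), for Maf Mettl5 (0.0814), Sv2a (0.0824) and Ppp1r21 (0.0826), and for Cebpa Lpxn (0.0902), Hsh2d (0.0917) and Pop5 (0.117). For Irf8, Spi1 and Runx1, whose group means differed little, the closest genes were Btd (0.0627), Tp53i11 (0.0547) and Ubqln1 (0.0412). None of the 8 factors was among the closest genes of another.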

How the data were processed

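The authors deposited a table of FPKM for 17284 gene symbols and 22 samples, and 0 further sample columns. HISAT2 2.0.3, Cufflinks 2.2.1 and rat build rn6 appear in the submitters' processing notes with no settings; annotation, filters and scaling were not stated there. The labels' protocols give poly-A cDNA of full transcripts, tagmented and read from both ends.

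Groups follow the sample titles. Tests ran on log2(FPKM + 1), which understates changes of low genes, with limma 3.58.1 in R 4.3.3: all 22 samples, 5 group means, moderated variances with trend and robust, two-sided, Benjamini-Hochberg adjustment over the 9691 genes with 1 FPKM or more in 3 samples or more. Every adjusted p printed is from limma. Means carry SD, log2 changes SE, and folds are ratios of mean FPKM. A listed 0 can be a failed estimate (5203 genes were at 0 throughout), so groups with zeros are given by library. The most similar pair of libraries (FCS 3d 2 and FCS 3d 4, r = 0.979 over genes) had 0 values above 0 in common, so each sample was counted once.

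The factors, gene lists and comparisons were chosen with earlier results of these data known. Named genes are all factors, their relatives and partners, at most 4 called genes per list with the largest change and at most 2 that moved against its majority, and the 3 nearest profiles; part of these are printed. Estimates for genes with similar relatives, such as the C1q and Irf families, may share reads. On simulated data the fit recovered 16 to 34% of 2-fold and 71 to 90% of 4-fold changes over the 6 comparisons, so a factor that was not called may still differ. Promoters come from RefSeq, GRCr8. The alternatives tried, and their effects, are under the closing section. A result for 1 listed gene is not reported here.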

Additional observations from a re-analysis of the deposited data

Results flagged for a closer look

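Within groups of 4 to 6 libraries, 32 sets of values of the 8 factors were examined for a library whose gap to the next exceeded Dixon's 95% critical value, and 3 did so, where chance gives about 1 in 20. Spi1 read 309 FPKM in FCS 1d 5, against 123 to 157 FPKM in the other FCS 1d libraries, and that library has the high summed FPKM described for TIC 5 and TIC 6. Cebpa read 27.9 FPKM in TIC 3, against 8.54 to 13.9 FPKM in the other TIC libraries. Cebpa also read 13.4 FPKM in FCS 5d 3, against 4.36 to 5.89 FPKM in the other FCS 5d libraries. Without FCS 5d 3 the fall of Cebpa in FCS 5d against FCS 1d was 1.94 (limma adjusted p = 0.033). The cause of these values was not tested.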

How the results depend on the processing

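The results were recomputed with a pseudocount of 0.1 or 5, no filter, a filter of 5 FPKM (where Maf has no value), median-of-ratios and quantile scaling, only the 2 groups compared, a replicate block, variances without trend, and each library left out. Added after the data were seen were rescaling to the same summed FPKM, the divisions by summed FPKM and by zeros as terms, and each side of a division alone. Of 1162 values over 48 results of the 8 factors in 6 comparisons, 1092 kept their call, 57 lost it, 11 gained one and 2 called values changed sign, while 81 uncalled values changed sign.

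The count of 4 factors in TIC against Acute was 1 in high-sum libraries, 2 in many-zero libraries and 3 to 4 with a library left out. The count of 2 in FCS 5d against TIC was 1 under both pseudocounts, no filter, both scalings, the replicate block, no trend, a term for the summed-FPKM division and low-sum libraries, 0 in many-zero libraries, where FCS 5d 1 stands alone for FCS 5d (Mitf -1.89 there), and 0 to 2 with a library left out, 0 being without FCS 5d 1. The count of 2 in FCS 5d against FCS 1d was 1 under the pseudocount of 0.1, no filter, median-of-ratios scaling, no trend, the same summed FPKM and few-zero libraries, 0 in many-zero libraries, and 0 to 2 with a library left out, 0 again without FCS 5d 1. The count of 2 in FCS 5d against Acute was 4 in few-zero libraries, where Acute 3 stands alone for Acute. A lone library is assumed to vary like the other groups. Irf8 reversed in few-zero libraries, to -1.95 in TIC, -1.60 in FCS 3d and -1.77 in FCS 5d, each against Acute.

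Counts over all genes that moved by more than 1.5 times follow. TIC against Acute called 4106, but 2727 with only the 2 groups, 934 in high-sum and 1974 in few-zero libraries. FCS 1d against TIC called 283, but 489 under the replicate block, 458 with a term for the summed-FPKM division, and 615, 0, 129 and 54 in low-sum, high-sum, few-zero and many-zero libraries. FCS 3d against TIC called 977, but 623 without FCS 3d 1, 619 without FCS 3d 2, 1690 in low-sum and 187 in many-zero libraries. FCS 5d against TIC called 1251, but 816 without FCS 5d 4, 1931 in low-sum and 131 in many-zero libraries. FCS 5d against FCS 1d called 521, but 344 without FCS 5d 2, 994 in low-sum and 46 in many-zero libraries, and 817 with the zero division as a term. FCS 5d against Acute called 3861, but 2160 in few-zero libraries. Of the other comparisons, FCS 3d against FCS 1d called 105, a count that moved in 17 of 24 alternatives (30 to 95 with a library left out). FCS 5d against FCS 3d called 61, which moved in 12 of 23 (27 to 54 with a library left out). FCS 1d against Acute called 3714 and FCS 3d against Acute 3814, which moved in 2 of 23 and 1 of 21. Causes were not tested.

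Replicate numbers are not said to mark a shared animal, batch or day. Correlations of same-numbered deviations ran from 0.097 to 0.477 over the 5 numbers of FCS 1d and TIC, all above 0. They ran from -0.103 to 0.318 in the other comparisons. The main fit did not take the numbers to pair the samples. In FCS 1d against TIC the replicate block called 489 of all genes, against 283 without it, and 0 factors in both. Under the replicate block Mef2a lost its calls in TIC against Acute (adjusted p = 0.069) and in FCS 5d against TIC (adjusted p = 0.079).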

Other observations

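Markers of border macrophages, the macrophages of the meninges and vessel walls, were higher with serum. Of 6 tested, 1 rose at 1 day of serum, 4 at 3 days and 5 at 5 days against TIC, and 0 fell. The called shares were 16.7, 66.7 and 83.3%, against 2.92, 10.1 and 12.9% of all tested genes. In TIC against Acute, without any serum, 3 rose and 1 fell (66.7% called, against 42.4% of all tested genes). Mrc1, the mannose receptor gene, averaged 104.2 ± 25.9 FPKM in FCS 5d and 9.09 ± 3.75 FPKM in TIC (SD, n = 4 and 6, log2 change 3.43 ± 0.27, limma adjusted p = 6.0e-09). Folr2, a folate receptor gene, averaged 219.6 ± 14.8 FPKM in FCS 5d and 129.4 ± 34.3 FPKM in TIC (log2 change 0.79 ± 0.23, limma adjusted p = 0.025). Lyve1, a hyaluronan receptor gene, rose by 3.69 in FCS 5d against TIC, and its log2 change in TIC against Acute was -4.56. Siglec1, a sialic acid receptor gene, rose by 2.77 in FCS 5d against TIC and was listed at 0 in all Acute libraries. Cd163, another defining marker, was listed at 0 in all TIC libraries and in 2 of 4 FCS 5d libraries. Which cells carried these transcripts was not tested.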
